A study of Homo sapiens with 6 samples.

Results

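The S100 calcium-binding proteins examined here are the 9 genes S100A2, S100A4, S100A6, S100A10, S100A11, S100A13, S100A14, S100A16 and S100B, taken by symbol from a table of 23346 gene rows. RNA was sequenced from the human embryonic stem cell line KhES-1, an established line, grown on a coating of laminin fragment (0.5 µg per square cm). One group was maintained in AKIT medium and the other in the control medium, Essential 8 (E8), a defined medium containing TGF-beta and FGF2. The AKIT formula is built on small-molecule inhibitors of GSK3, of DYRK kinases and of calcineurin. All samples come from 1 line, and the laminin fragment, whose name also contains E8, was shared by both groups. The series holds 3 samples per medium. AKIT replicates 1 to 3 were compared with E8 replicates 1 and 2, and E8 replicate 3 was not analysed here. Whether replicates were separate cultures is not labelled, so p-values reflect variation among these libraries only, and that variation could be technical.

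S100 proteins are small proteins built around a pair of EF-hand loops that bind calcium. Most work as dimers that open a binding surface when calcium rises inside the cell and then attach to annexins, cytoskeletal proteins or enzymes, and some are released and act on cell-surface receptors such as RAGE. S100A10 is the exception, since its loops no longer bind calcium and it stays paired with annexin A2. The members on chromosome 1 lie in a cluster shared with genes of skin differentiation, and S100B lies apart on chromosome 21.

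Promoter windows were matched for 8 of the 9 genes, 12 windows in all, from RefSeq on GRCh38.p14, each with 250 bases before and 50 bases after an annotated start. The windows of S100A4, S100A11 and S100A10 are shown 5′ to 3′ on the minus strand, because S100A4 changed most between the media and S100A10 and S100A11 are the family's most abundant genes and changed places. Capitals mark TATAA in S100A4 and GGGCGG in the other windows.
S100A4 at chr1:153545757-153546056: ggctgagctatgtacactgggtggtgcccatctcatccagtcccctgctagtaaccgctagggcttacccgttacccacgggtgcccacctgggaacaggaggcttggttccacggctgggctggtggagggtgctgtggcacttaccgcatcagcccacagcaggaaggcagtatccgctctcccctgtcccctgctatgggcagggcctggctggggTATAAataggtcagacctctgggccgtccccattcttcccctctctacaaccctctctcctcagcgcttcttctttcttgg
S100A11 at chr1:152036955-152037254: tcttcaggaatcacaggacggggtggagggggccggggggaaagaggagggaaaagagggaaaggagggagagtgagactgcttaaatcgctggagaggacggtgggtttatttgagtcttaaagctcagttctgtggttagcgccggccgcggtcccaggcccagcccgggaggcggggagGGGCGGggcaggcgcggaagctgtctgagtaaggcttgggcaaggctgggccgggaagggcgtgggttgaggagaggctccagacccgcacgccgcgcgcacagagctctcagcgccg
S100A10 at chr1:151993810-151994109: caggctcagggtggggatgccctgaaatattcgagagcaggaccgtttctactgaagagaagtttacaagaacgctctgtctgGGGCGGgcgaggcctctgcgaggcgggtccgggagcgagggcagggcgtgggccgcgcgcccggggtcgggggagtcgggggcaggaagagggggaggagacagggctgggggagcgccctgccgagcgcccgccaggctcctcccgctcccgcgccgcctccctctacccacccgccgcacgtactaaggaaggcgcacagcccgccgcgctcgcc

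The S100A4 window holds TATAA with its first base at -31 from the start, and the windows of S100A6 and S100A14 hold it at -30 and -29. The middle one of the 3 windows of S100A13 holds it on both strands, at -30 and -29. Across all 35116 RefSeq windows of this length, 20.4% hold TATAA. The motif GGGCGG lies at -167 in the window of S100A10 and at -68 in that of S100A11, and 45.0% of all windows hold it. CCAAT (in 34.6% of all windows) was found in 1 window each of S100A16 and S100A13, and TGANTCA (in 7.71%) in 1 window of S100A2 at -52. All 4 motifs were searched on both strands. Overlapping matches were those of TATAA on opposite strands in S100A13 and of GGGCGG at -79 and -75 in S100A6. The windows also differed in CpG pairs, with 32 in S100A10, 31 in S100A6 and 22 in S100A11 against 8 in S100A4, 5 in S100A14 and a median of 14 over all windows. Members that fell thus had windows on both sides of that median. These matches describe letters in the windows, and binding was not measured.

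Levels are RPKM, reads scaled by gene length and library depth, so that genes can be compared with each other. Group values are means ± SD, over 3 AKIT and 2 E8 libraries (n = 3 and n = 2). Differences are given as AKIT minus E8 in units of log2(RPKM + 1), where changes of low genes appear smaller than they were, ± the standard error of limma's moderated test. A gene rose or fell where the Benjamini-Hochberg adjusted p over 14776 tested genes was under 0.05. The values rested on 16242864 to 23263095 reads per library. Pluripotency genes were expressed in all libraries, with POU5F1 at 349 ± 52.0 RPKM in AKIT and at 328 ± 21.01 in E8. Of 11 pluripotency markers tested, 0 rose and 2 fell, SOX2 (log2 difference -0.79) and PODXL (-0.62), and neither call remained with either E8 library left out. Leaving out AKIT replicate 2 gave 1 higher and 3 lower markers, and leaving out AKIT replicate 3 gave 0 and 1. AKIT replicate 2 was the lowest of the AKIT libraries for 40.1% of tested genes.

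Of the 9 genes, S100A4, S100A11, S100A16 and S100A13 fell in AKIT. S100A4 had the largest difference, with a mean 3.21 times as high in E8 as in AKIT, against 2.06 times for S100A11, 1.92 times for S100A16 and 1.36 times for S100A13. S100A10, S100A6 and S100A14 did not pass the test, and S100A2 and S100B were below the filter of the test. The 4 of 7 tested members that fell compare with 11.7% of all tested genes called lower, while 8.22% were called higher and 20% in either direction. By limma 0 members rose, with 1 higher at an unadjusted p under 0.05 (S100A10), and voom on recovered reads gave 0 by adjusted p and 1 by unadjusted p. The median difference was -0.41 over the 7 tested members and -0.01 over all tested genes. The 2 members below the filter stand in neither count.

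**Figure D1:**
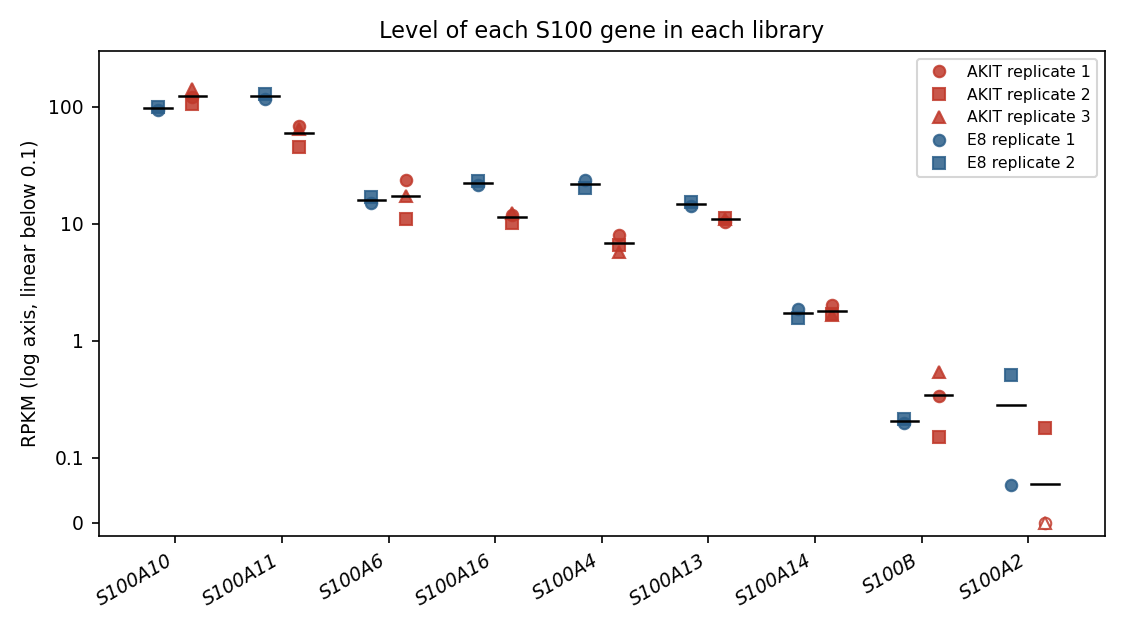
RPKM (vertical, log axis that is linear below 0.1) of each S100 gene in each library, with E8 libraries in blue, AKIT libraries in red and group means as black bars; open symbols are values of 0. S100A4, S100A16 and S100A11 show the AKIT libraries below both E8 libraries, while the AKIT libraries of S100A6 lie on both sides of them.

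S100A4, a metastasis-associated S100 protein that binds non-muscle myosin, had 8.08, 6.55 and 5.76 RPKM in the AKIT libraries, given here and below in replicate order, and 23.6 and 20.1 RPKM in the E8 libraries. Every AKIT library lay below both E8 libraries, and the nearest pair of libraries across the media still differed 2.49-fold. The means were 6.80 ± 1.18 in AKIT and 21.8 ± 2.48 in E8, a log2 difference of -1.56 ± 0.15 (limma adjusted p = 0.00178, 95% interval -1.91 to -1.20). Behind these values were 63 to 106 reads per AKIT library and 184 to 235 per E8 library. S100A4 was the 1 member whose call remained whichever single library was left out, with limma adjusted p between 0.00174 and 0.0349.

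S100A11, a partner of annexin A1 that is abundant in many epithelia, stood at 68.3, 44.9 and 64.5 RPKM in AKIT and at 116 and 129 in E8. The AKIT libraries all lay below E8, with replicate 2 the lowest. The means were 59.2 ± 12.5 and 122 ± 9.03, a log2 difference of -1.05 ± 0.18 (limma adjusted p = 0.0106). GENCODE 29 names 2 processed pseudogenes of S100A11 that are not rows of the table, so some of its reads may be shared with near-identical copies and its level is uncertain to that extent. With 1 E8 library the difference was -1.13 without replicate 1 and -0.98 without replicate 2, and neither passed (limma adjusted p = 0.0795 and 0.105).

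S100A16, a broadly expressed S100 protein with weak calcium binding, stood at 11.96, 10.1 and 12.4 RPKM in AKIT and at 21.2 and 22.9 in E8. Its AKIT libraries kept within 1.23-fold of each other, well below the 1.71-fold step between the nearest AKIT and E8 libraries. The log2 difference was -0.89 ± 0.12 (means 11.5 ± 1.24 and 22.1 ± 1.22, limma adjusted p = 0.00433). It did not pass with E8 replicate 1 or 2 left out (limma adjusted p = 0.0535 and 0.0691).

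S100A13, which takes part in the release of FGF1 from cells without a signal peptide, stood at 10.4, 11.3 and 10.96 RPKM in AKIT and at 14.3 and 15.2 in E8. This was the tightest member within AKIT, at 1.08-fold between its highest and lowest library, and 90.6% of the 9473 genes averaging 5 RPKM or more spread at least as widely. Its means were 10.9 ± 0.417 and 14.7 ± 0.632, a log2 difference of -0.41 ± 0.10 (limma adjusted p = 0.0302). The call ended without AKIT replicate 1 or 3 (limma adjusted p = 0.0660 for both), without E8 replicate 1 or 2 (0.185 and 0.262) and in voom on recovered reads (0.0514). In GENCODE 29 its exons share 235 bases with those of S100A1 on the opposite strand, and without a stated use of strand, reads of the shared bases cannot be told apart. S100A1 itself stood at 1.16, 3.33 and 2.52 RPKM in AKIT and 3.24 and 2.59 in E8, with AKIT replicate 1 low and the other values overlapping.

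**Figure D2:**
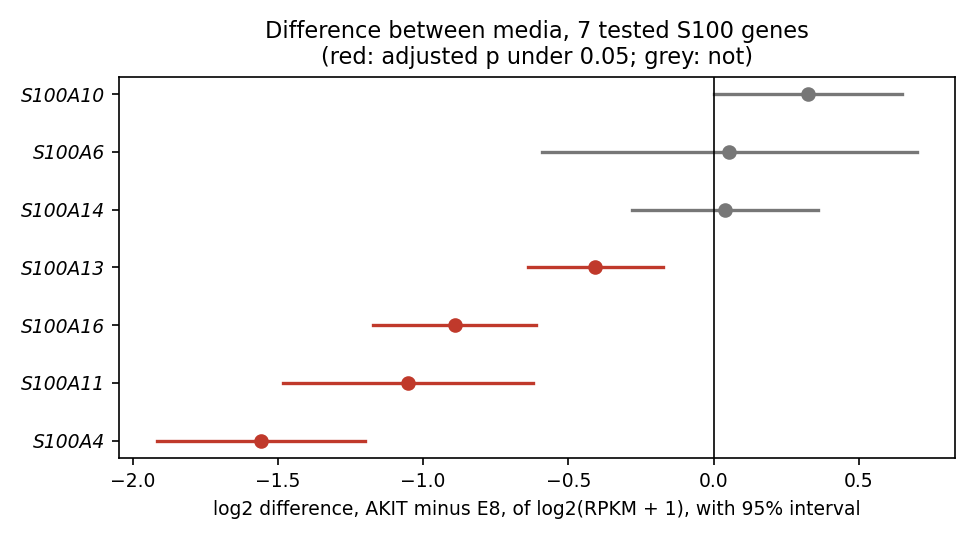
Log2 difference, AKIT minus E8, of the 7 tested S100 genes (points) with 95% intervals (lines), red where the limma adjusted p was under 0.05. S100A4, S100A11, S100A16 and S100A13 lie below 0, and S100A10 sits above it with an interval that starts at 0.000276.

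S100A10, the annexin A2 partner, was the most abundant member in AKIT. By its mean over the libraries of both media it was at the 98.1st percentile of all rows. It stood at 121, 105 and 141 RPKM in AKIT and at 93.9 and 99.7 in E8. The AKIT libraries were all higher, but replicate 2 exceeded the higher E8 library by only 1.05-fold, and 54.4% of all tested genes had groups that did not overlap. The means were 122 ± 18.4 and 96.8 ± 4.13, a log2 difference of 0.32 ± 0.14 that did not pass (limma adjusted p = 0.139, 95% interval 0.000276 to 0.65). Without AKIT replicate 2 the difference was 0.43 and passed (limma adjusted p = 0.0197), as it did with array weights (0.02497). Those settings called 14.5% and 15.4% of all tested genes higher, against 8.22% in the main fit.

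S100A6, known as calcyclin, stood at 23.5, 10.95 and 17.4 RPKM in AKIT and at 14.9 and 16.9 in E8. AKIT replicate 1 was the highest of all libraries and AKIT replicate 2 the lowest, a 2.14-fold spread that only 2.33% of those 9473 genes reached. The log2 difference was 0.05 ± 0.27 (means 17.3 ± 6.27 and 15.9 ± 1.37, limma adjusted p = 0.906), with an interval from -0.59 to 0.70 that leaves changes of either sign possible. The values of S100A6 thus varied more among AKIT libraries than between the group means.

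S100A14, an epithelial member, stood at 2.03, 1.703 and 1.65 RPKM in AKIT and at 1.87 and 1.57 in E8, from 27 to 50 reads per library. The groups overlapped, and the log2 difference was 0.04 ± 0.14 (limma adjusted p = 0.860, 95% interval -0.28 to 0.36).

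S100B, best known from glia and melanocytes, had 9, 4 and 12 reads in AKIT and 4 in each E8 library. That gives 0.341, 0.151 and 0.545 RPKM in AKIT and 0.200 and 0.217 in E8, with the groups overlapping. Pooled over libraries the level was 0.334 RPKM in AKIT (exact Poisson 95% interval 0.216 to 0.494) and 0.208 in E8 (0.0898 to 0.410), so no difference was detectable at this depth. S100A2, a member of basal epithelia, had 0, 4 and 0 reads in AKIT and 1 and 8 in E8. Its pooled level was 0.0632 RPKM in AKIT (0.0172 to 0.162) and 0.277 in E8 (0.126 to 0.525), and 1 E8 library gave 8 of the 9 E8 reads. With no filter on low values neither passed, with log2 differences of -0.26 for S100A2 and 0.15 for S100B (limma adjusted p = 0.347 and 0.502). These intervals cover counting error only, for reads recovered from the RPKM values.

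The order of levels changed at the top of the family. In E8 the order by mean was S100A11, S100A10, S100A16, S100A4, S100A6, S100A13, S100A14, S100A2 and S100B, and the libraries of S100A16 and S100A4, of S100A6 and S100A13, and of S100A2 and S100B overlapped. In AKIT it was S100A10, S100A11, S100A6, S100A16, S100A13, S100A4, S100A14, S100B and S100A2. There the libraries of S100A6, S100A16 and S100A13 overlapped their neighbours in the order, as did those of S100B and S100A2. S100A4 thus stood level with S100A16 in E8 and below S100A13 in every AKIT library.

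Within each library the ratio of S100A10 to S100A11 was 1.77, 2.33 and 2.19 in AKIT replicates 1, 2 and 3 and 0.811 and 0.776 in E8. S100A11 was the higher of the pair in both E8 libraries and S100A10 in all AKIT libraries. A ratio within a library does not depend on how that library was scaled to depth. On the log2 scale it was 1.06 ± 0.21 in AKIT and -0.33 ± 0.05 in E8, a 2.63-fold difference (exact two-sided permutation p = 0.2, the smallest that 10 splits of 3 against 2 can give). Of the summed RPKM of the 21 S100 rows, S100A10 made up 48.6% to 54.8% in AKIT and 32.2% to 32.4% in E8. The share of S100A11 was 23.1% to 27.4% in AKIT and 39.96% to 41.5% in E8, and that of S100A4 2.23% to 3.37% and 6.49% to 8.15%. The sum itself was 195 to 258 RPKM in AKIT, lowest in replicate 2, and 290 to 309 in E8.

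**Figure D3:**
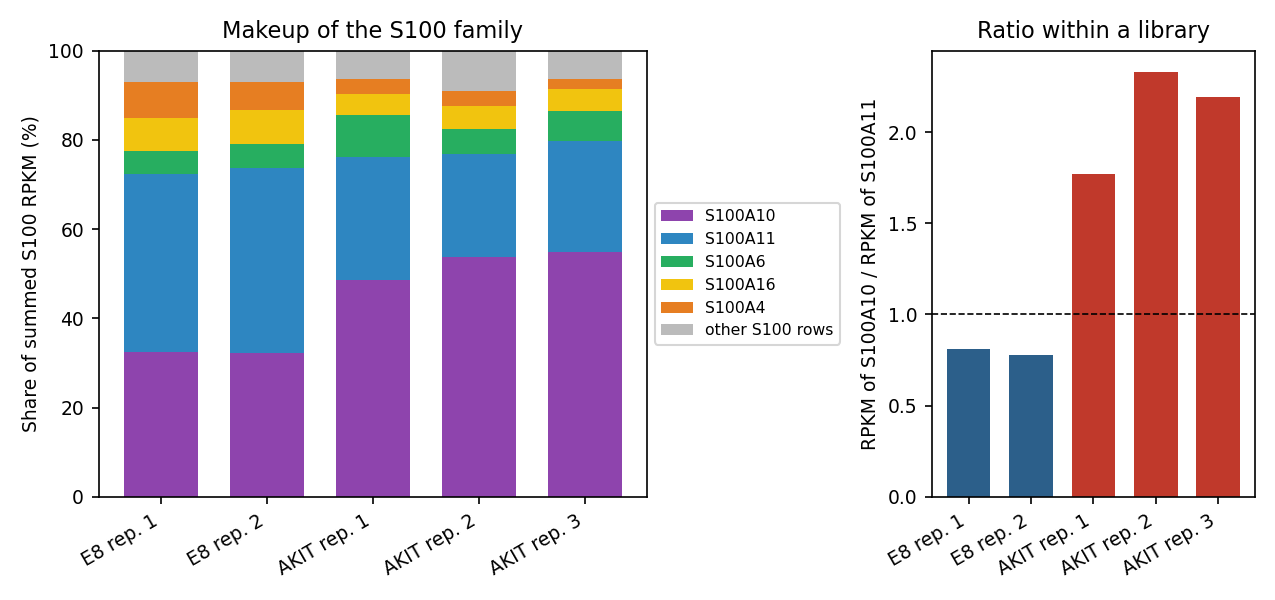
Left, share (%) of the summed RPKM of the 21 S100 rows taken by 5 named genes and by the rest, in each library. Right, ratio of S100A10 to S100A11 RPKM within each library, with a dashed line at 1; both E8 libraries lie below it and the 3 AKIT libraries above it.

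The 9 genes held 97.8% to 98.7% of that sum. Of the other 12 S100 rows, 6 were listed at 0 in every library, S100A7, S100A7A, S100A7L2, S100A8, S100A9 and S100A12, which are genes of inflamed skin and myeloid cells. S100A1, of heart and muscle, and S100Z reached the filter and neither passed (limma adjusted p = 0.508 and 0.380). S100P, named after its values were seen, had 12, 3 and 2 reads in AKIT and 0 in both E8 libraries, at least 2.91-fold higher against a floor of 3 reads over the E8 libraries. AKIT replicate 1 gave 12 of the 17 reads, and without it the level was 1.32 times the floor. The level was 1.40 times the floor without E8 replicate 1 and 1.52 times without E8 replicate 2, with the floor of 3 reads then set over the other E8 library.

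By RefSeq order, S100A10 and S100A11 lie side by side, followed by 47 protein-coding genes of skin differentiation and their neighbours before S100A9. Of the 45 of these in the table, by current or older symbol, 41 were at 0 in all libraries, and the highest of the rest, PRR9, had a mean of 0.154 RPKM. After S100A9, S100A12, S100A8, S100A7A and S100A7 come S100A6, S100A5, S100A4, S100A3, S100A2, S100A16, S100A14, S100A13 and S100A1. S100A4, which fell, lay between S100A5 and S100A3, each at 0 to 3 reads per library, and S100A14, which did not pass, between S100A16 and S100A13, which fell. Among 22 tested genes of a wider neighbour list, 0 rose and 2 fell, NPR1, the natriuretic peptide receptor (log2 difference -0.85), and RPS27, a ribosomal protein gene with related copies (-0.66). The median of that list was -0.08. With either E8 library left out 0 were called, leaving out AKIT replicate 1 or 3 gave 1 lower, and leaving out AKIT replicate 2 gave 1 higher and 2 lower.

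Among the binding partners, ANXA2, which pairs with S100A10, had means of 34.7 ± 4.83 and 44.0 ± 1.26 RPKM in AKIT and E8. Its log2 difference of -0.34 ± 0.13 did not pass (limma adjusted p = 0.108). The ratio of ANXA2 to S100A10 was 0.317, 0.279 and 0.258 in AKIT and 0.459 and 0.450 in E8. Both AKIT and E8 libraries therefore held more S100A10 than ANXA2 per unit length, and the AKIT ratios all lay below those of E8. ANXA1, which binds S100A11, rose from 1.23 ± 0.192 to 2.46 ± 0.503 RPKM (0.63 ± 0.16, limma adjusted p = 0.0391) while S100A11 fell. ANXA9, an atypical annexin, fell by 0.51 on the log2 scale. Of 9 annexins tested, 1 rose and 1 fell (median -0.23), and 0 and 0 were called without AKIT replicate 1, AKIT replicate 3 or either E8 library. Without AKIT replicate 2, 2 rose and 1 fell. In the main fit 8.22% of all tested genes rose and 11.7% fell.

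Of 22 tested partners outside the annexins, 3 rose and 0 fell, with a median of 0.05. AHNAK, a giant scaffold that binds S100A10 with annexin A2, rose by 0.76 ± 0.17, NCL, the nucleolar protein nucleolin, by 0.39 ± 0.11 and IQGAP1, a cytoskeletal scaffold, by 0.31 ± 0.09 on the log2 scale. MYH9, the myosin heavy chain bound by S100A4, had means of 53.2 ± 4.81 and 57.2 ± 1.16 RPKM in AKIT and E8 (limma adjusted p = 0.511). CACYBP, the calcyclin-binding protein, stood at 29.7 ± 2.62 and 25.6 ± 0.405 (limma adjusted p = 0.213, and 0.0413 without AKIT replicate 2). FGF1, released with S100A13, was below the filter at 0.180 ± 0.108 and 0.364 ± 0.0665 RPKM. This count changed with single libraries, with 0 partners rising without AKIT replicate 1, 1 without AKIT replicate 3 and 7 without AKIT replicate 2, where 1 fell. The share of all tested genes called higher moved too, from 8.22% in the main fit to 5.35%, 4.62% and 14.5% in that order. With 1 E8 library the differences of AHNAK, NCL and IQGAP1 were 0.67, 0.36 and 0.31 without replicate 1. They were 0.86, 0.41 and 0.32 without replicate 2, and both fits rest on a single E8 library.

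Of 7 tested receptors for released S100 proteins, 4 fell and 0 rose, with a median of -0.37. Of all tested genes, 11.7% fell and 8.22% rose. AGER, which encodes RAGE, stood at 0.657, 0.892 and 0.900 RPKM in AKIT and at 3.74 and 2.62 in E8. The AKIT libraries were all lower, and the log2 difference was -1.19 ± 0.16 (limma adjusted p = 0.00468). ALCAM, an adhesion molecule of the immunoglobulin family, fell by 0.67 ± 0.12 and FGFR1, an FGF receptor, by 0.69 ± 0.16 on the log2 scale. The fourth, SDC4, a syndecan named after its values were seen, fell by 0.37. TLR4, a receptor of S100A8 and S100A9 named after its values were seen, was below the filter and not tested, at 0.617, 0.327 and 0.285 RPKM in AKIT and 0.0980 and 0.0213 in E8, with every AKIT library higher. Leaving out AKIT replicate 2 gave 1 higher and 4 lower receptors. Without AKIT replicate 1 or 3, 2 receptors fell, and without E8 replicates 1 and 2, 0 and 1 fell.

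**Figure D4:**
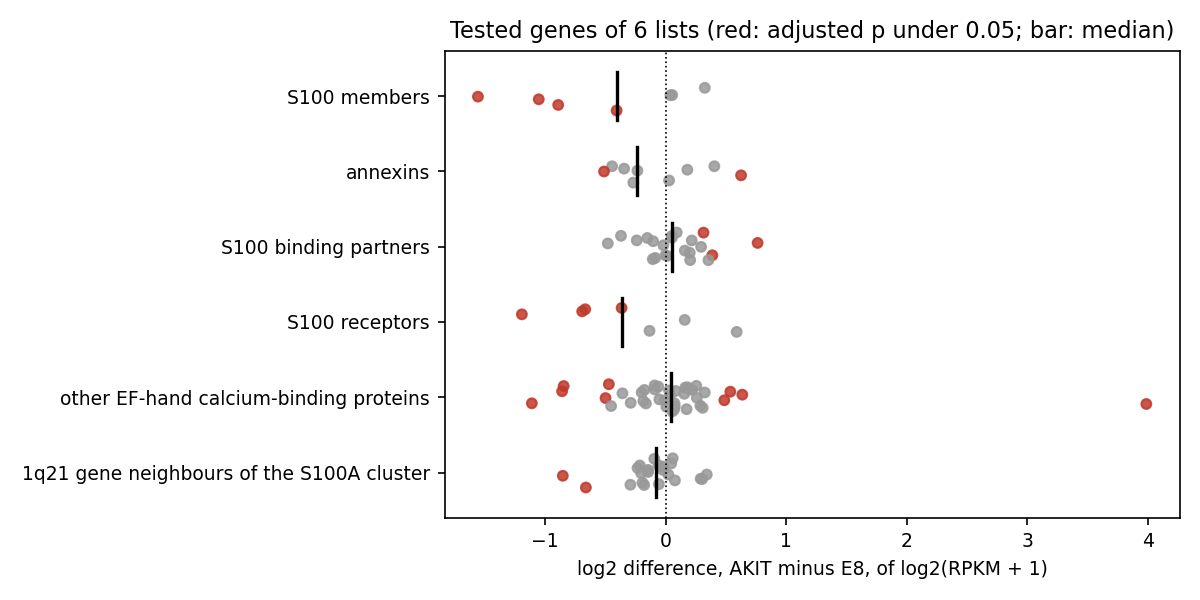
Log2 difference, AKIT minus E8, of each tested gene (points) in 6 gene lists, red where the limma adjusted p was under 0.05, with the list's median as a black bar; vertical jitter has no meaning. The medians of the S100 genes (-0.41) and of the receptors (-0.37) are the lowest of the 6, and LCP1 stands alone at 3.99.

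Of 40 other EF-hand proteins tested, 4 rose and 5 fell (median 0.05), near the shares of all tested genes that rose (8.22%) and fell (11.7%). LCP1, an actin-bundling protein with EF-hands, had a log2 difference of 3.99 ± 0.41, VSNL1, a neuronal calcium sensor, fell by 1.11 and EFHD1, a mitochondrial calcium sensor, by 0.86. With either E8 library left out 1 of these genes rose and 0 fell, and 8 rose and 6 fell without AKIT replicate 2. Without AKIT replicate 3, 2 rose and 3 fell.

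By the smallest root mean square distance of centred log2(RPKM + 1) values over the 5 libraries, the genes most like S100A4 were MAGEA4 (0.10) and MACROD1 (0.10). For S100A11 they were CD74 (0.05) and CTSH (0.08), for S100A16 SUSD4 (0.04) and ZNF853 (0.04), and for S100A13 CTNNB1 (0.02) and ACADS (0.02). CD74 followed S100A11 in each library, at 23.7, 16.9 and 24.0 RPKM in AKIT and 42.0 and 49.2 in E8, with AKIT replicate 2 again the lowest. Over 5 libraries in a pair of groups, many genes share such a pattern, and the distances are a description.

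S100 genes are also markers of differentiated cells, so markers of other cell types are given beside them. The counts of these lists stand against 11.7% of all tested genes that fell and 8.22% that rose. Of 11 fibroblast and mesenchyme markers tested, 4 fell and 0 rose, among them PDGFRB (log2 difference -1.15), THY1 (-0.71) and COL6A3 (-0.65). The list's summed level was 245 to 364 RPKM in AKIT and 423 to 425 in E8. Much of that sum was THY1, at 203, 145 and 157 RPKM in AKIT and 275 and 273 in E8. COL3A1, LUM and FN1, named after their values were seen, were higher in every AKIT library than in E8 and did not pass (limma adjusted p = 0.140, 0.178 and 0.0572). Such a separation was seen in 3819 of all 14776 tested genes. FN1 had means of 23.1 ± 5.25 RPKM in AKIT and 14.7 ± 0.786 in E8. COL3A1 stood at 5.63, 2.15 and 0.141 RPKM in AKIT and 0.0413 and 0 in E8, and LUM at 5.81, 1.83 and 0.0244 in AKIT and was listed at 0 in both E8 libraries. The fibroblast counts became 3 higher and 1 lower without AKIT replicate 3, 0 higher and 2 lower without AKIT replicate 1, and 1 higher and 4 lower without AKIT replicate 2, and 0 were called with either E8 library left out.

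Of 9 trophoblast and amnion markers tested, 4 fell and 0 rose, among them IGFBP3 (-1.50), TFAP2A (-1.32) and KRT7 (-1.28), with summed levels of 33.4 to 54.3 RPKM in AKIT and 62.7 in both E8 libraries. Of all 14776 tested genes, 3819 were higher in every AKIT library than in E8. So were another 3 of the tested trophoblast and amnion markers, named after their values were seen, and they did not pass. These were HAND1 (3.63 ± 2.38 against 0.982 ± 0.0861 RPKM), TFAP2C (22.6 ± 7.23 against 14.2 ± 1.30) and CGA (1.99, 0.102 and 0.611 RPKM in AKIT, listed at 0 in E8), with limma adjusted p of 0.0776, 0.108 and 0.176. The trophoblast counts became 2 higher and 4 lower on leaving out AKIT replicate 2, and likewise with the replicate block. They became 1 higher and 4 lower on leaving out AKIT replicate 3, and 3 higher and 5 lower with array weights. With either E8 library left out, 0 were higher and 1 lower. Of 8 epithelial and keratinocyte markers tested, SFN rose (0.71) and KRT19 fell (-0.99), with sums of 635 to 735 RPKM in AKIT and 616 to 638 in E8. KRT19 fell whichever library was left out, while of the 5 fits that each left out 1 library, SFN passed only in the one without AKIT replicate 2, where 3 of the list rose. The basal keratin KRT14 was at 0 in every library. Among the glial and melanocyte markers, FABP7 rose (0.72), a call that ended without AKIT replicate 1 or either E8 library, and the list's sums were 119 to 139 RPKM in AKIT and 126 to 133 in E8. CD68, a myeloid marker, did not pass (log2 difference -0.18, limma adjusted p = 0.459). Of 6 endothelial markers 1 reached the filter, TEK, which was lower at an unadjusted p under 0.05 and did not pass after adjustment (log2 difference -0.57, limma adjusted p = 0.0673). PTPRC and TYROBP, which define blood cells, were at 0 in every library. In these bulk samples, fewer cells of a type and less RNA per cell cannot be told apart, and the part of the fibroblast and trophoblast markers in the falls of S100A4, S100A11 and S100A16 was not tested.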

How the data were processed

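Per the labels' protocols, column-purified total RNA was sequenced as Illumina libraries. The authors deposited 1 table of RPKM values for 23346 gene rows, and hg19 and GRCh37 are the builds in the submitters' processing notes. For the aligner, counter, annotation and strand setting, details were not given in the sources used here. Columns were matched to samples by title: 3 AKIT and 2 E8 libraries. Whole reads were recovered from the steps of the RPKM values. For each gene the shortest length that put all its values within 0.02 of whole reads was taken. Such a length was found for 100% of 19892 genes above 0, which is no check, since genes with few reads can hardly fail it. Recovered reads of low genes may be a fraction of the true counts, and their Poisson intervals rest on them. The recovered reads sum to 99.0% of each library's total. In a gene of 1 kb, 1 read is worth 0.0430 to 0.0616 RPKM.

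The test was limma 3.58.1 in R 4.3.3, two-sided and with a trend over intensity, on log2(RPKM + 1) of genes averaging 0.5 RPKM or more, with Benjamini-Hochberg adjustment over 14776 genes. All libraries with a column matched to their labels entered it, 3 against 2. On simulated reads (AKIT against E8, 14671 genes, dispersion 0.01), 31.3%, 86.4% and 98.4% of changes of 1.5-fold, 2-fold and 4-fold were recovered. In genes these were 21 of 67, 57 of 66 and 62 of 63, and the same fit made 26 false calls. The dispersion was a fixed value for all genes, not estimated from these data, so recovery may be lower for genes that vary more. Pseudocounts, filters, scalings, voom, array weights, a replicate block and leaving out each library were tried as 15 alternatives. Members and lists were chosen with earlier results of these data known. Named genes are the 9 members, a few fixed partners, up to 3 called genes of each list by size (or 2 with the smallest p where none passed), and the 2 genes nearest in pattern to each called member; some of the results this rule selects are not reported here. Gene order and promoter windows came from RefSeq (GRCh38.p14) and overlaps from GENCODE 29, both of another build than the values.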

Additional observations from a re-analysis of the deposited data

How the results depend on the processing

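Of the 15 alternatives, 13 left the number of members that fell within 1.5 times of 4. The exceptions were the fits without E8 replicate 1 or 2, and over the fits that left out 1 library the number ranged from 1 to 4. The number of members that rose was 0 in all but 2 settings, and was 1 with array weights and between 0 and 1 over the fits that left out 1 library. In both settings, array weights and the fit without AKIT replicate 2, the gene was S100A10, and more of all tested genes were called higher there than in the main fit. The direction of S100A6 and S100A14 was not fixed. Leaving out 1 library at a time, their log2 differences ranged from -0.19 to 0.33 and from -0.041 to 0.12. The cause was not tested. Whether replicate numbers pair the libraries is not known. Deviations from the group means correlated across genes at -0.0013 for the libraries numbered 1 and 0.03 for those numbered 2. For AKIT replicate 3 with E8 replicate 1, whose numbers differ, the value was 0.03. With 2 E8 libraries, whose deviations mirror each other, these values cannot decide whether libraries were paired. With a replicate block 3 members fell and 0 rose, since S100A13 did not pass (limma adjusted p = 0.1003). Over all genes the block left 492 higher and 824 lower, against 1214 and 1736 without it. With 1 E8 library the lone library is assumed to vary like the AKIT libraries. Most calls over all tested genes were lost in those fits, so the calls of members and lists lost there are not particular to them. Over all alternatives the log2 difference of S100A4 ranged from -1.68 to -1.45, of S100A11 from -1.16 to -0.87, of S100A16 from -0.95 to -0.81 and of S100A13 from -0.45 to -0.37. Depth limits S100A2 and S100B, with at most 12 recovered reads in a library.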
